A study of Mus musculus with 8 samples.

Results

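Genes whose proteins let blood leukocytes attach to and cross the vessel wall were followed in mouse liver RNA: the selectins Sele and Selp, the immunoglobulin-family molecules Icam1, Icam2 and Vcam1, and the junctional adhesion molecules Jam2 and F11r. They were taken by symbol and made up 7 of the 21899 genes in the deposited table, each with a single identifier. RNA sequencing compared 4 P2X4R-deficient with 4 wild-type livers, all from mice given ConA and all taken at 8 h, so the wild-type livers had received ConA too. P2X4R, the product of P2rx4, is a cation channel that extracellular ATP opens. ConA, or concanavalin A, is a lectin of the jack bean whose injection drives T cells to injure the mouse liver. The sample labels call the genotype a P2X4R knockdown and the series description writes P2X4R-/-, with no word on the altered exons or on the cells in which the receptor was lost. The labels give no strain, age or batch. They do not tie libraries to separate mice, and the p-values cover only the spread among these 8 libraries. No liver without ConA was analysed here, which leaves the level before injury unknown.

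Leukocytes leave the blood in steps. Selectins on activated endothelium bind glycans on passing leukocytes and slow them into rolling, and the integrins of the leukocyte then bind ICAM and VCAM molecules and hold the cell still before it passes between or through endothelial cells, where the JAM proteins sit. Sele is made anew by endothelium after cytokines such as TNF and IL-1, whereas P-selectin is also stored in granules of endothelial cells and platelets. In liver, much leukocyte adhesion takes place in sinusoids, where it is known to rely less on selectins than in other organs, and ICAM-1 is carried by sinusoidal endothelium, Kupffer cells and, in inflammation, hepatocytes.

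Libraries held 15445285 to 16604190 counted reads. P2rx4 had 17.3, 24.9, 27 and 29.6 CPM in deficient libraries 1 to 4, against 43.8, 62.4, 59.7 and 57.6 CPM in wild-type libraries 1 to 4, where CPM is the read count relative to library size after TMM scaling. It fell by 1.18 in log2 terms (SE 0.19, edgeR adjusted p = 0.00481), so every deficient library lay below every wild-type library but RNA of the gene was still counted. Hepatocyte markers fitted the labelled tissue, with all 8 measured and a summed level of 71600 to 98000 CPM in deficient livers and 106000 to 119000 CPM in wild-type livers. Of 18 endothelial marker genes, 15 passed the filter on low counts, among them Pecam1, Cdh5, Kdr, Stab2 and Lyve1, while Tek, Emcn and Erg did not. The summed level of the 18 was 98.1 to 162 CPM in deficient livers and 88.9 to 218 CPM in wild-type livers.

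Of the adhesion genes, 3 were lower in deficient livers and none was called higher. All 7 passed the filter and were among the 11380 genes tested with edgeR's quasi-likelihood test. Sele, Icam1 and Vcam1 fell at a Benjamini-Hochberg adjusted p under 0.05, which was 3 of 7, against 10.6% of all tested genes called lower. Members and the gene lists below were chosen with earlier results of these data known, so such counts beside the share of all genes are descriptions. No member was called higher by edgeR, which is near the 9.27% of all tested genes that edgeR called higher. None was called higher by DESeq2 or at an unadjusted p under 0.05, to which that share does not apply. All 7 estimates were below 0. The same 3 genes had every deficient library below every wild-type library, against 12.3% of all tested genes. In bulk liver RNA, fewer cells of a type and less RNA per cell cannot be told apart, which holds for each of these falls.

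**Figure D1:**
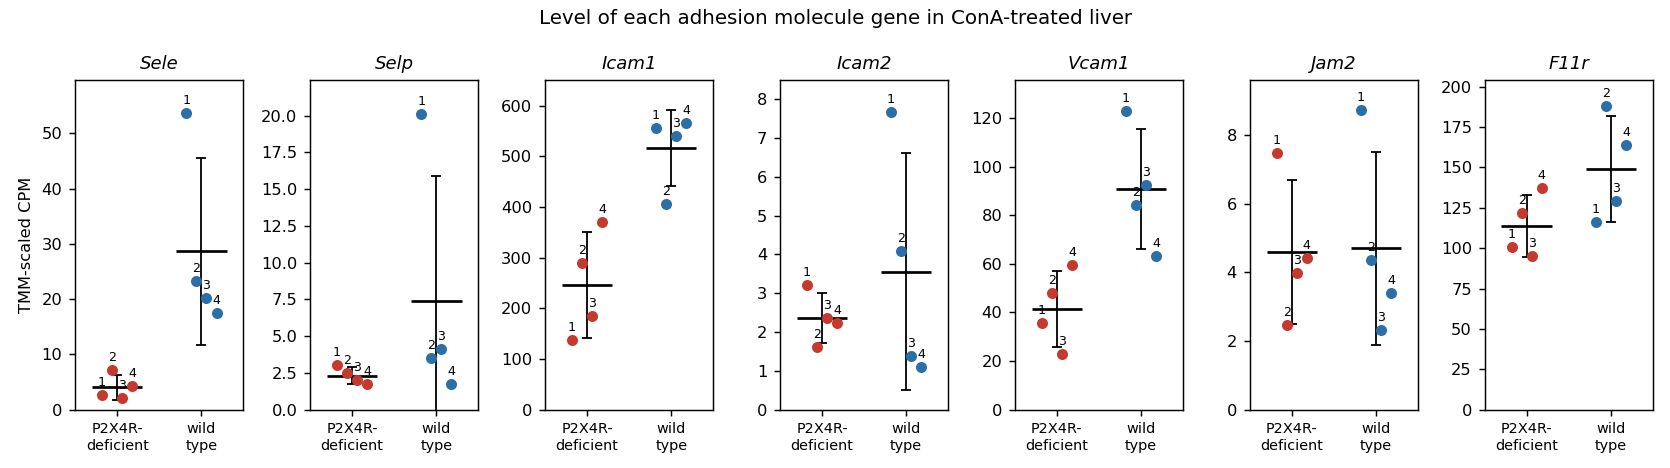
TMM-scaled CPM of the 7 adhesion genes in each library, with P2X4R-deficient livers in red on the left and wild-type livers in blue on the right of each panel. Points are libraries numbered by replicate, the horizontal line is the group mean and the bar its SD (n = 4), drawn down to 0 where it would go below. The groups do not overlap for Sele, Icam1 and Vcam1, and wild-type library 1 stands high for Sele, Selp, Icam2, Vcam1 and Jam2.

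Promoter windows were available for 4 of the 7 members, and all 4 are printed. Sele and Icam1 were called lower while Selp and F11r were not. The promoter set used here held no entry for Icam2, Vcam1 and Jam2. Each window comes from RefSeq on GRCm38.p6, reads 5′ to 3′ on the plus strand and holds 300 bases, and capitals mark matches to the motifs described after the sequences. The windows are chr1:164047984-164048283 for Sele, chr1:164115014-164115313 for Selp, chr9:21015690-21015989 for Icam1 and chr1:171437311-171437610 for F11r.
Sele: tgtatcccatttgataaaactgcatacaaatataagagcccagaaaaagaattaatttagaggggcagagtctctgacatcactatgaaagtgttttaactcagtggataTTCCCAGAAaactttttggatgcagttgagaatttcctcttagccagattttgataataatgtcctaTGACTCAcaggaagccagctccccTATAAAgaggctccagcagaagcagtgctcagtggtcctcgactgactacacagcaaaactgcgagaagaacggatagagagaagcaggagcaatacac
Icam1: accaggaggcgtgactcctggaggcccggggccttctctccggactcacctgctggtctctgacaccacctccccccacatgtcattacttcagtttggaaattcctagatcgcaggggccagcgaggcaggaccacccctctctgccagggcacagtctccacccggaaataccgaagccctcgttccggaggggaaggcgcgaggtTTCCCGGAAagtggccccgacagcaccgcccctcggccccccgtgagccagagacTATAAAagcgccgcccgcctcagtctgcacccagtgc
Selp: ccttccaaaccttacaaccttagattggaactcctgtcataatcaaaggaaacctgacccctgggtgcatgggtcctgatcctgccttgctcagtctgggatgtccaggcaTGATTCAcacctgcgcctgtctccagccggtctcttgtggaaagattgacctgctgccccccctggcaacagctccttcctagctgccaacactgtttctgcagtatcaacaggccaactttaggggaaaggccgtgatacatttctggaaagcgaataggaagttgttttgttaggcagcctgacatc
F11r: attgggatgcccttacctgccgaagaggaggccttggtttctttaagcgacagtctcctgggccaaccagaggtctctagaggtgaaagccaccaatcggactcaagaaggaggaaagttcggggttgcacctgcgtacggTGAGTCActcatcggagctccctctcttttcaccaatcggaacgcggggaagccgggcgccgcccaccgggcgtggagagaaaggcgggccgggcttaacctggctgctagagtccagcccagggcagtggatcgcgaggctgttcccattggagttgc
Base 251 of the window is the first base of the RefSeq gene for Selp, Icam1 and F11r, whereas the RefSeq gene record of Sele begins further upstream. Both strands were searched for the NF-kB consensus GGGRNNYYCC, the AP-1 motif TGANTCA, the interferon gamma-activated site TTCNNNGAA and the TATA box TATAAA. In these, R is A or G, Y is C or T and N is any base. The Sele window held 3 of the 4 motifs. With base 251 counted as 0, they were a gamma-activated site at -140 to -132, an AP-1 motif at -73 to -67 and a TATA box at -49 to -44. The Icam1 window held a gamma-activated site at -42 to -34 and the letters TATAAA at 13 to 18. The latter match lies downstream of base 251, and whether it acts as a TATA box was not tested. Selp held an AP-1 motif at -139 to -133 and F11r one at -109 to -103. The matches did not overlap each other. The NF-kB consensus had 0 matches in all 4 windows, which says only that these letters are not in these windows. Sites that depart from these letters were not searched for, so the windows may still hold NF-kB sites. Among 32817 promoter windows of the same length, 8.46% held the NF-kB consensus, 7.81% the AP-1 motif, 8.29% the gamma-activated site and 13.6% the TATA box.

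E-selectin RNA was the member with the largest fall. Sele (ENSMUSG00000026582, chromosome 1, 163875803 to 163885246 on the plus strand in the table, whose genome build is not given in the sources used here) encodes the selectin that endothelium makes upon cytokine stimulation. It was at 2.72, 7.14, 2.14 and 4.31 CPM in deficient libraries 1 to 4, against 53.7, 23.2, 20.2 and 17.5 CPM in wild-type libraries 1 to 4. The highest deficient library was below the lowest wild-type library, and wild type 1 stood apart from the other wild-type livers. These levels rested on 45, 115, 37 and 75 reads in deficient and 849, 330, 306 and 273 reads in wild-type libraries. Sele averaged 4.08 ± 2.24 CPM in deficient livers and 28.6 ± 16.9 CPM in the wild type (SD, n = 4 each). It fell by 2.81 in log2 terms (SE 0.43, edgeR adjusted p = 0.00433), so deficient livers held 14.2% of the wild-type level (95% interval 7.43% to 27.2%). The fall passed the threshold with each library left out in turn, and ranged between -3.23 without deficient library 2 and -2.33 without wild-type library 1. An exact two-sided permutation test on log2 CPM gave p = 0.0286, the smallest that the 70 assignments of 4 against 4 libraries allow.

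P-selectin did not pass the test. Selp (ENSMUSG00000026580, chromosome 1, 163942833 to 163977595, plus strand) encodes the selectin that endothelium and platelets keep in granules. It was at 3.02, 2.48, 2.02 and 1.72 CPM in deficient libraries 1 to 4, against 20.1, 3.52, 4.15 and 1.73 CPM in wild-type libraries 1 to 4. Wild type 1 was far above all other libraries and wild type 4 was level with the deficient ones, so the groups overlapped. The log2 fold change was -1.68 (SE 0.62, edgeR adjusted p = 0.0756), and the 95% interval ran from 12.2% to 80.1% of the wild-type level. Without wild type 1 it was -0.45 (adjusted p = 0.405), so the estimate leaned on that 1 library, which held 318 Selp reads. Without wild type 4 it was -1.99 (adjusted p = 0.0345), and DESeq2 on all libraries gave -1.67 (adjusted p = 0.0215).

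Platelet markers were lower beside Selp, and haemoglobin genes had the profiles most like it. Of 9 platelet and megakaryocyte markers 4 passed the filter, and 2 of those fell, against 10.6% of all tested genes called lower. The chemokine gene Ppbp fell by 1.49 (SE 0.34, edgeR adjusted p = 0.0136) and the integrin gene Itga2b by 0.87 (SE 0.24, adjusted p = 0.0282) on the log2 scale. Itga2b was not called without deficient libraries 1 or 3 or wild-type libraries 2, 3 or 4, at -0.80 to -0.87. The summed platelet list was at 3.64 to 6.38 CPM in deficient livers and 7.63 to 13.3 CPM in wild-type livers, and Gp1bb, which defines the lineage, had 0 reads in every library. The 3 tested genes whose pattern over the 8 libraries was closest to Selp were the haemoglobin genes Hbb-bt and Hbb-bs and the collagen gene Col5a1. Hbb-bs was at 120, 214, 154 and 137 CPM in deficient and 873, 274, 338 and 95.4 CPM in wild-type libraries. Its peak in wild type 1 follows largely from its choice by likeness to Selp. The part of platelets and blood in the Selp values was not tested.

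Icam1, which encodes the main ligand of the leukocyte integrin LFA-1, was the most abundant member. Icam1 (ENSMUSG00000037405, chromosome 9, 20927281 to 20940113, plus strand) was at 137, 290, 185 and 371 CPM in deficient libraries 1 to 4, against 557, 406, 540 and 565 CPM in wild-type libraries 1 to 4. The groups did not overlap, but deficient 4 came close to wild type 2. Icam1 averaged 246 ± 105 CPM in deficient livers and 517 ± 74.8 CPM in the wild type (SD, n = 4 each). It fell by 1.07 in log2 terms (SE 0.27, edgeR adjusted p = 0.0205), so deficient livers held 47.6% of the wild-type level (95% interval 31.4% to 72%). The call was lost without deficient library 3, at -0.96 (adjusted p = 0.0623), and without wild-type library 3, at -1.05 (adjusted p = 0.0556). The exact permutation p was 0.0286, the smallest possible.

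Vcam1, which encodes the ligand of the leukocyte integrin VLA-4, was also lower in deficient livers. Vcam1 (ENSMUSG00000027962, chromosome 3, 115903598 to 115923337, minus strand) was at 35.8, 47.8, 23.1 and 59.5 CPM in deficient libraries 1 to 4, against 123, 84.3, 92.3 and 63.2 CPM in wild-type libraries 1 to 4. The groups were separated only narrowly, by deficient 4 and wild type 4. Vcam1 averaged 41.5 ± 15.7 CPM in deficient livers and 90.6 ± 24.7 CPM in the wild type (SD, n = 4 each). It fell by 1.13 in log2 terms (SE 0.28, edgeR adjusted p = 0.0185), so deficient livers held 45.8% of the wild-type level (95% interval 30.1% to 69.8%). The call held without each library in turn, with adjusted p between 0.0164 and 0.0491, and the exact permutation p was 0.0286. Vcam1 is also carried by Kupffer cells. Against 10.6% of all tested genes called lower, 3 of 9 tested Kupffer markers fell (Cd5l, Adgre1 and Clec4f), and all 9 estimates were below 0. The summed Kupffer list was at 42.2 to 60.4 CPM in deficient livers and 55.8 to 182 CPM in wild-type livers, which overlap. All 3 calls were lost without deficient library 1 or 3, at -0.94 to -1.36. Adgre1 also lost its call without any other single library but wild type 4, at -0.98 to -1.34. Clec4f lost it without deficient 2 or 4 or wild type 2, at -0.97 to -1.20, and without wild type 1, at -0.60. The part of Kupffer cells in the Vcam1 values was not tested.

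Icam2, the second LFA-1 ligand, which endothelium carries without stimulation, was scarce and did not pass the test. Icam2 (ENSMUSG00000001029, chromosome 11, 106268482 to 106278901, minus strand) was at 3.20, 1.62, 2.37 and 2.24 CPM in deficient libraries 1 to 4, against 7.66, 4.08, 1.38 and 1.09 CPM in wild-type libraries 1 to 4. The wild-type livers held both the highest and the lowest values. The log2 fold change was -0.59 (SE 0.53, edgeR adjusted p = 0.462), with a 95% interval of 29.7% to 148% of the wild-type level, and it was 0.10 without wild-type library 1. That interval spans both a fall as deep as that of Icam1 and a rise, so these data do not show whether Icam2 differed.

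The junctional members were not called. F11r (ENSMUSG00000038235, chromosome 1, 171265103 to 171292171, plus strand) encodes JAM-A, a tight junction protein of endothelium and epithelium that is also on platelets and leukocytes. It was at 101, 122, 94.9 and 137 CPM in deficient libraries 1 to 4, against 116, 188, 129 and 164 CPM in wild-type libraries 1 to 4. The groups overlapped. Its log2 fold change was -0.39 (SE 0.19, edgeR adjusted p = 0.171), with a 95% interval of 57.1% to 102% of the wild-type level. Jam2 (ENSMUSG00000053062, chromosome 16, 84571011 to 84622816, plus strand) encodes JAM-B, which is found at endothelial junctions. It was at 7.48, 2.48, 3.99 and 4.42 CPM in deficient libraries 1 to 4, against 8.73, 4.36, 2.31 and 3.40 CPM in wild-type libraries 1 to 4. Library 1 was the highest in both genotypes. The log2 fold change of Jam2 was -0.03 (SE 0.42, edgeR adjusted p = 0.966), with a 95% interval of 52.1% to 183%, and its sign changed with the scaling.

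**Figure D2:**
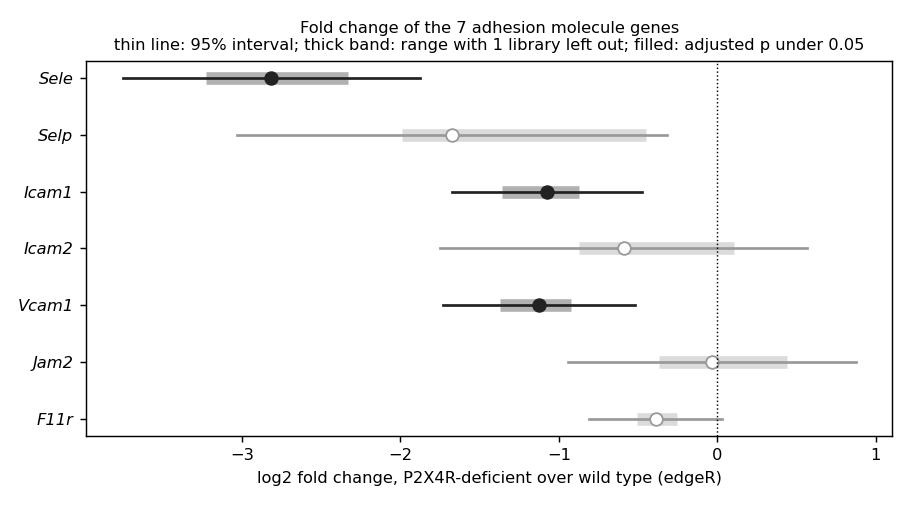
Log2 fold change of each adhesion gene, P2X4R-deficient over wild type, from edgeR on 8 libraries. Points are estimates (filled where the adjusted p is under 0.05), thin lines 95% intervals and thick bands the range of estimates with 1 library left out. Sele lies at -2.81, and the bands of Icam2 and Jam2 cross 0.

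Only values per gene length compare members with each other, and on the FPKM scale Icam1 and F11r made up most of the RNA of the 7 genes. The summed FPKM of the members was 83.5, 123, 90.2 and 154 in deficient libraries 1 to 4, against 213, 169, 177 and 198 in wild-type libraries 1 to 4. In deficient livers the order of mean levels was Icam1 at 58.9 ± 24.5 FPKM, F11r at 44.8 ± 7.0, Vcam1 at 4.90 ± 1.79, Sele at 1.45 ± 0.751, Icam2 at 1.31 ± 0.390, Jam2 at 0.805 ± 0.382 and Selp at 0.551 ± 0.138 (SD, n = 4). In wild-type livers it was Icam1 at 113 ± 19.3 FPKM, F11r at 53.0 ± 10.5, Vcam1 at 9.75 ± 2.95, Sele at 9.48 ± 6.01, Icam2 at 1.80 ± 1.61, Selp at 1.63 ± 1.96 and Jam2 at 0.750 ± 0.480 (SD, n = 4). Sele thus overlapped with Icam2 in deficient livers and with Vcam1 in wild-type livers. Icam1 and F11r also overlapped in deficient livers, at 33.6 to 89.2 and 38.3 to 54.1 FPKM, and were apart in wild-type livers, at 85.3 to 128 and 43.5 to 64.7 FPKM. Among the 3 scarcest members of each genotype the ranges of neighbours overlapped, although Icam2 was above Jam2 in each of the 4 deficient libraries.

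Of the 7 members, Sele alone took a share of their summed FPKM that did not overlap between the genotypes, a difference that was not tested. Sele made up 1.20%, 2.01%, 0.877% and 1.01% of the summed FPKM in deficient libraries 1 to 4, against 8.64%, 4.31%, 3.62% and 2.92% in wild-type libraries 1 to 4. F11r made up 41 ± 6% in deficient and 28.4 ± 7.58% in wild-type livers, and Icam1 50.8 ± 7.59% in deficient and 59.4 ± 6.36% in wild-type livers (SD, n = 4 each), with overlapping values for each gene. For each unit of Sele, Icam1 was at 33.6, 27.1, 57.8 and 57.5 in deficient libraries, against 6.92, 11.7, 17.9 and 21.6 in wild-type libraries. Both genes were lower in deficient livers, and Sele by the larger factor in these ratios, which were described and not tested.

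The members also varied to different degrees among libraries. Over all 8 libraries the SD of log2 CPM of Sele was larger than that of 99.3% of tested genes, that of Selp larger than 96.7% and that of Icam2 larger than 91.8%, whereas F11r was at 38.0%. Icam1 and Vcam1 had the most similar pair of profiles, with a root mean square difference of 0.38 between their centred log2 CPM values. Icam2 and Jam2 came next at 0.46, and Sele and Jam2 were farthest apart at 1.63. The profiles share library depth and scaling, and the distances are descriptions.

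**Figure D3:**
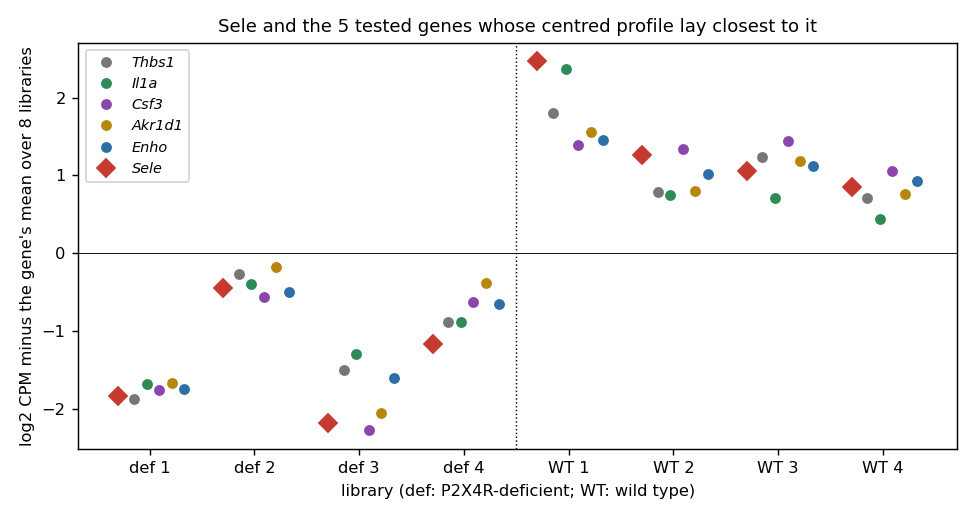
Log2 CPM of Sele (red diamonds) and of the 5 tested genes closest to it, each centred on its own mean over the 8 libraries, with deficient libraries left of the dotted line and wild-type libraries right of it. All 6 genes lie below 0 in deficient and above 0 in wild-type libraries, and Sele is highest in wild type 1. The 5 genes were picked for likeness to Sele over these same libraries, so their shared pattern follows from the choice.

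Over the 8 libraries, the 5 tested genes with the smallest root mean square difference from Sele were Thbs1 (0.39), Il1a (0.44), Csf3 (0.46), Akr1d1 (0.47) and Enho (0.47). Il1a, which encodes the cytokine IL-1 alpha, was at 0.664, 1.62, 0.868 and 1.15 CPM in deficient libraries, against 11, 3.59, 3.5 and 2.88 CPM in wild-type libraries. Like Sele it was highest in wild type 1. These genes were picked for their likeness to Sele, so such shared features follow largely from the choice. Csf3, which encodes the granulocyte growth factor G-CSF, was at 4.65, 10.6, 3.24 and 10.2 CPM in deficient libraries, against 41.1, 39.6, 42.8 and 32.6 CPM in wild-type libraries. Thbs1 encodes thrombospondin-1, a matrix and platelet glycoprotein, Akr1d1 a steroid reductase of hepatocytes and Enho the liver peptide adropin. For Icam1 the closest genes were Nfkbiz, an NF-kB cofactor, Plcl2 and Gbp6, each at 0.14. For Vcam1 they were Bcl2l11 (0.14), which encodes the death-promoting protein BIM, Nit2 (0.15) and Tcea3 (0.16). For Icam2 they were Gpihbp1 (0.17), the lipase anchor of capillary endothelium, Cd80 (0.23) and Fyn (0.27). For Jam2 they were Asns, Pex10 and Pear1 (0.20 to 0.21), and for F11r Fcho2, Gbp3 and Gm10130 (each 0.10).

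Relative to endothelial marker RNA, Sele and Vcam1 were still lower in every deficient library. The 18 endothelial markers, which contain no member, summed to 174, 98.8, 109 and 141 CPM, here without TMM scaling, in deficient libraries 1 to 4, against 218, 137, 88.6 and 85.5 in wild-type libraries 1 to 4. These totals overlapped. Of the 15 tested markers 3 fell (Tie1, Clec4g and Robo4) and 1 rose (Egfl7), against 10.6% of all tested genes called lower and 9.27% called higher. Tie1 lost its call without wild type 3 (-0.96), Clec4g without wild type 1 or 2 (-1.18 and -1.20), Egfl7 without deficient 1 or 4 or wild type 2, 3 or 4 (1.37 to 1.59), and Robo4 without any library but wild type 3 or 4 (-0.64 to -1.35). Per 1000 endothelial marker reads, Sele had 16.8, 72.8, 21.1 and 32.1 reads in deficient libraries, against 247, 155, 210 and 197 in wild-type libraries. Wild type 1, which held the most endothelial marker RNA, no longer stood far from the other wild-type livers on this scale. Vcam1 had 221, 487, 227 and 443 reads per 1000 in deficient libraries, against 564, 562, 962 and 711 in wild-type libraries. Icam1 had 844, 2950, 1820 and 2760 in deficient libraries, against 2560, 2700, 5620 and 6350 in wild-type libraries, and the groups overlapped. Of the 7 exact two-sided permutation tests on these ratios, Sele and Vcam1 gave p = 0.0286, the smallest possible, and the others gave p between 0.171 and 0.771. The share of all genes whose groups do not overlap on this scale was not computed. With edgeR scaled to the endothelial total over all genes, Sele remained called at -2.51 (adjusted p = 1.14e-05), while Icam1 at -1.04 (adjusted p = 0.212) and Vcam1 at -1.02 (adjusted p = 0.201) were not.

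**Figure D4:**
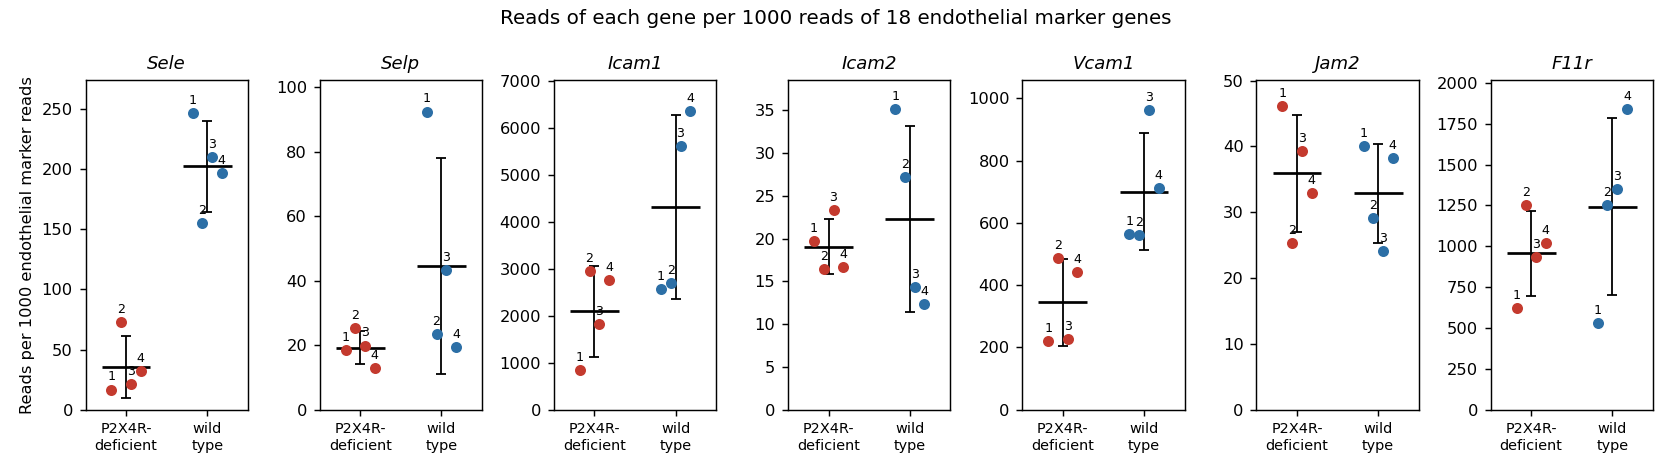
Reads of each adhesion gene per 1000 reads of the 18 endothelial marker genes, with P2X4R-deficient libraries in red on the left and wild-type libraries in blue on the right of each panel. Numbers are replicates, lines group means and bars SD (n = 4). Sele lies between 16.8 and 72.8 in deficient and between 155 and 247 in wild-type libraries. Of the members, only Sele and Vcam1 have groups that do not overlap, and the share of all genes on this scale was not computed.

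Genes acting upstream of endothelial adhesion molecules were described as lists, each read against the 10.6% of all tested genes called lower, the 9.27% called higher and a median of -0.0015 for all genes on the log2 scale. Among cytokines and receptors known to induce these molecules, 11 of 14 were tested, 3 fell and the median log2 fold change was -0.69. None rose by edgeR or DESeq2, and none was higher at an unadjusted p under 0.05. Il1a fell by 2.28 (SE 0.48, edgeR adjusted p = 0.0104) and Il6 by 2.16 (SE 0.53, adjusted p = 0.0180). The interferon gamma receptor chain gene Ifngr2 fell by 0.69 (SE 0.17, adjusted p = 0.0195). Without deficient library 3, Il6 at -1.90 and Ifngr2 at -0.68 lost their calls. Tnf at -0.83 (SE 0.35, adjusted p = 0.112), Il1b at -0.90 (SE 0.51, adjusted p = 0.233) and Ifng at -1.07 (SE 0.43, adjusted p = 0.0944) did not pass.

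In the list of NF-kB subunits and inhibitors, the factors through which TNF and IL-1 act on endothelium, 6 of 9 fell, with a median of -0.79, and all 9 estimates were below 0. DESeq2 called 7 lower, and scaling to endothelial marker RNA 3, with Nfkb1 at -1.09 (adjusted p = 0.174), Nfkb2 at -0.66 and Relb at -0.68 no longer called. The feedback inhibitor Tnfaip3 was at 104 to 226 CPM in deficient livers and 426 to 701 CPM in wild-type livers, and fell by 1.83 (SE 0.26, edgeR adjusted p = 0.00419). Nfkbia, which encodes IkB-alpha, was at 124 to 284 CPM in deficient livers and 557 to 769 CPM in wild-type livers, and fell by 1.70 (SE 0.27, adjusted p = 0.00481). The subunit genes Rel and Nfkb1 fell by 1.45 and 1.15 (SE 0.29 and 0.23, adjusted p = 0.00932 and 0.00931). The remaining calls, Nfkb2 and Relb, were each lost without single libraries (deficient 3 and wild-type 3 and 4 for Nfkb2, deficient 1 and 3 and wild-type 1 and 4 for Relb), at -0.63 to -0.78.

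**Figure D5:**
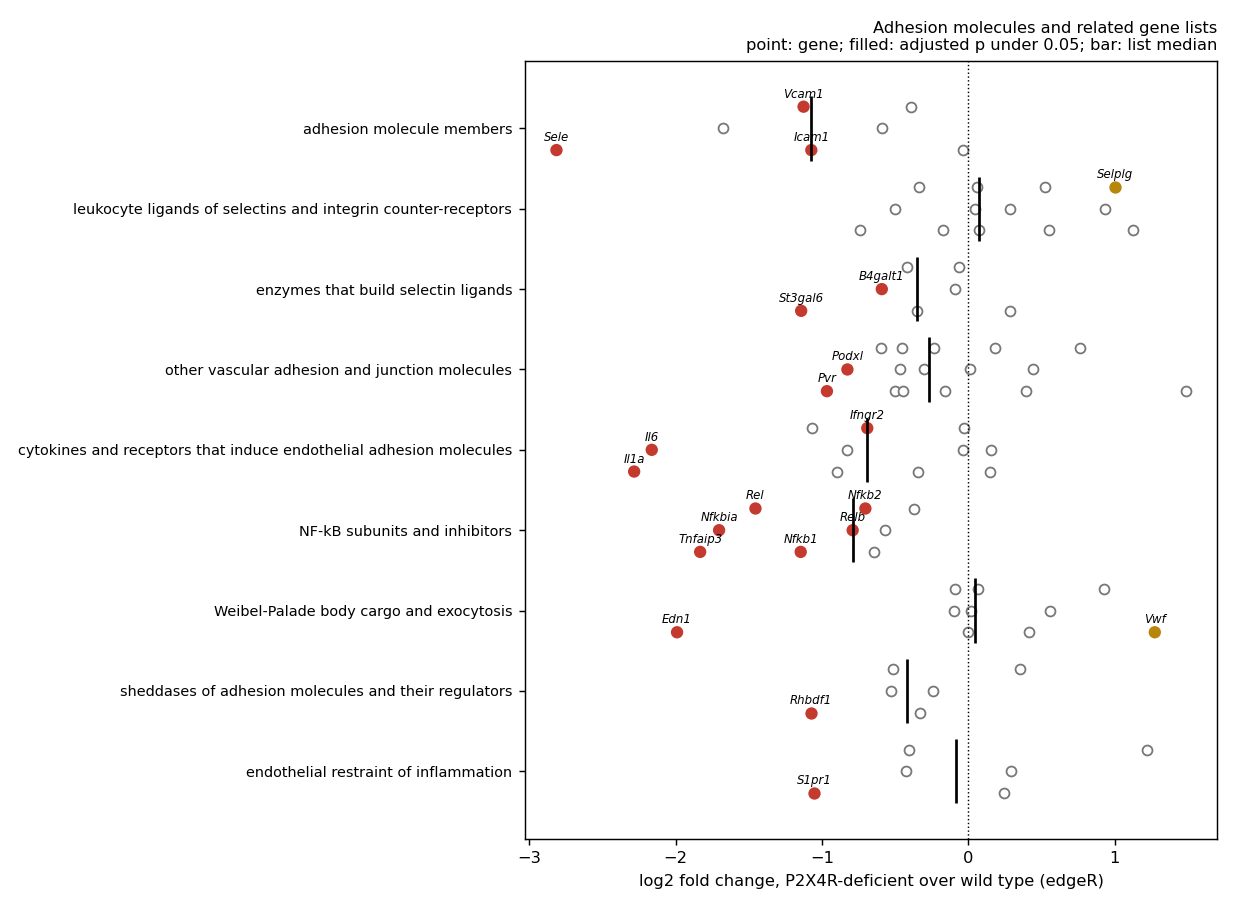
Log2 fold change, P2X4R-deficient over wild type, of the adhesion genes and of the tested genes of 8 related lists. Filled points passed an edgeR adjusted p under 0.05 (red lower, gold higher in deficient livers) and bars are list medians. The NF-kB list holds 6 filled points, all lower, and the list of leukocyte ligands holds 1, Selplg, which is higher.

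None of the leukocyte partners of these molecules was called lower by edgeR. All 13 selectin ligands and integrin counter-receptors were tested, 1 rose and the median was 0.07. With 0 lower and 1 higher, the list was near the shares of all tested genes (10.6% lower and 9.27% higher). At an unadjusted p under 0.05, for which no share of all genes was computed, 1 was lower and 3 were higher. DESeq2 called 1 lower and 2 higher. Selplg, which encodes the P-selectin ligand PSGL-1, was at 4.97 to 8.10 CPM in deficient livers and 2.12 to 5.25 CPM in wild-type livers and rose by 1.0 (SE 0.31, edgeR adjusted p = 0.0416). That call held without wild-type library 1 but was lost without any other single library, at 0.85 to 1.11. The integrin genes Itgal and Itgb2, which encode LFA-1, had log2 fold changes of 0.05 (SE 0.34) and 0.07 (SE 0.40), and Itga4 of VLA-4 had 0.28 (SE 0.42), none of them called. Of 9 neutrophil markers tested 2 rose (Mmp8 and Cxcr2), against 9.27% of all tested genes called higher, and 0 of the 9 estimates were below 0. The summed neutrophil list was at 95.2 to 183 CPM in deficient livers and 27.8 to 103 CPM in wild-type livers, which overlap. Mmp8 lost its call without deficient 4 or wild type 3 (1.37 and 1.95), and Cxcr2 without deficient 1 or 4 or wild type 2, 3 or 4 (1.23 to 1.52). The neutrophil surface marker Ly6g had 16, 16, 9 and 12 reads in deficient libraries, against 3, 1, 1 and 0 reads in wild-type libraries. Of T and NK cell markers 5 were tested and Gzma fell, against 10.6% of all tested genes called lower. The summed T and NK list was at 8.76 to 14.0 CPM in deficient livers and 10.1 to 17.9 CPM in wild-type livers. Cd3e had 0 reads in deficient 4 and wild type 4. Gzma was at -0.84 (SE 0.26, edgeR adjusted p = 0.0428), and was not called in the 6 fits that each left out a library other than deficient 4 or wild type 3, at -0.70 to -0.87. The part of these cells in the Selplg values was not tested.

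Among enzymes that build the glycans selectins bind, 7 of 12 were tested. Against 10.6% of all tested genes called lower, 2 of these enzymes fell, with a list median of -0.35. None was called with scaling by library size alone or to endothelial marker RNA, nor with the replicate block, 1 was called with limma or without a filter, and 3 with DESeq2. The galactosyltransferase gene B4galt1 was at -0.59 (SE 0.18, edgeR adjusted p = 0.0414) and the sialyltransferase gene St3gal6 at -1.14 (SE 0.36, adjusted p = 0.0458). Each lost its call in 6 of the 8 fits without 1 library: both did without deficient libraries 1 or 3 or wild-type libraries 2, 3 or 4, B4galt1 also without deficient library 4 and St3gal6 also without wild-type library 1, at -0.48 to -0.65 and -0.93 to -1.22. Fut4 and Fut7, which encode the leukocyte fucosyltransferases of selectin ligands, did not pass the filter, with at most 14 and 2 reads in a library. Of 22 other vascular adhesion and junction genes 16 were tested, with a median of -0.27. Of the 16, 2 fell, near the 10.6% of all tested genes called lower. These were the poliovirus receptor gene Pvr at -0.97 (SE 0.25, adjusted p = 0.0224), not called without deficient 3 or wild type 3 at -0.83 and -0.86, and the sialomucin gene Podxl at -0.83 (SE 0.24, adjusted p = 0.0313), not called without 5 of the libraries (deficient 3 and 4, wild type 2, 3 and 4) at -0.62 to -0.89. Pecam1, a molecule of endothelial junctions that leukocytes cross, had a log2 fold change of 0.01 (SE 0.31) and Cdh5, VE-cadherin, one of -0.60 (SE 0.35), neither called.

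Among genes of the Weibel-Palade body, the granule that stores P-selectin in endothelium, 10 of 11 were tested. Of these 1 fell, 1 rose and the median was 0.05, near the shares of all tested genes (10.6% lower and 9.27% higher). Edn1, which encodes the vasoconstrictor endothelin-1, was at 0.483, 0.932, 0.694 and 0.747 CPM in deficient libraries, against 5.19, 2.25, 2.44 and 1.54 CPM in wild-type libraries, and fell by 1.99 (SE 0.43, edgeR adjusted p = 0.0119). It was called without each library in turn. Vwf, which encodes the main cargo of the granule, was at 15.1, 12.7, 22.9 and 12.6 CPM in deficient libraries, against 11.1, 8.02, 3.10 and 3.97 CPM in wild-type libraries, and rose by 1.28 (SE 0.36, adjusted p = 0.0303). The Vwf call was lost without deficient libraries 1 or 3 or wild-type libraries 3 or 4, at 1.04 to 1.30. Among 6 sheddases of adhesion molecules and their regulators Rhbdf1, which encodes an inactive rhomboid that guides ADAM17, fell by 1.07 (SE 0.22, adjusted p = 0.0103), and Adam17 itself was at -0.33 (SE 0.19). Among 8 endothelial genes that restrain inflammation 6 were tested, and S1pr1, a receptor that keeps endothelial junctions closed, fell by 1.05 (SE 0.17, adjusted p = 0.00481), with list medians of -0.42 for the sheddases and -0.08 for the restraining genes.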

How the data were processed

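Liver polyadenylated RNA was sequenced on an Illumina NovaSeq, per the labels' protocols. The deposited table gives raw read counts per gene and library, per the file headers, and FPKM values that the authors scaled to gene length and library total. FPKM recomputed from the counts differed from the listed values by at most 7e-05%. Upstream tools, per the submitters' processing notes, include cutadapt and HISAT2 2.0.5. How reads were counted, whether by strand, on which annotation and on which build is not given in the sources used here. Starts equalled GENCODE M21 for 0 of 7 members, so the table's coordinates are printed as listed. No gene of the table overlapped a member.

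Counts were tested with edgeR 4.0.16 (R 4.3.3; TMM, default filter, no covariate, Benjamini-Hochberg over 11380 genes, threshold 0.05), after a check on simulated counts; 10519 genes were removed. The SE is the log2 fold change divided by the root of F. Exact permutation tests on CPM used log2 of CPM plus 0.1. Those on endothelial ratios used log2 of the ratio, with a small constant added to the member's reads. A floor of 3 reads is 0.181 to 0.194 CPM, and covers counting error only. Replicates differed beyond counting noise (chi-square per degree of freedom 21.5 to 109). Alternatives were DESeq2 1.42.0, limma 3.58.1 on log2 FPKM, other scalings and filters, and each library left out.

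Members and gene lists were chosen with earlier results of these data known. Besides the members, the rule named up to 4 genes of smallest p from each list, and the 5 genes nearest to Sele and 3 nearest to each other member by root mean square difference of centred log2 CPM. Others named were chosen after their values were seen.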

Additional observations from a re-analysis of the deposited data

Results flagged for a closer look

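Within each genotype, the 14 groups of 4 libraries (7 genes in 2 genotypes) were searched for a library whose gap to its nearest neighbour exceeded 0.829 of the group's range, a limit that chance passes in about 5% of groups. Sele had 53.7 CPM in wild-type library 1 and 17.5 to 23.2 CPM in the other wild-type libraries, a gap of 0.843 of the range. Selp had 20.1 CPM in wild-type library 1 and 1.73 to 4.15 CPM in the others, a gap of 0.868. Icam1 had 406 CPM in wild-type library 2 and 540 to 565 CPM in the others, a gap of 0.842, with the odd library on the low side. No deficient library stood apart in this way for any of the 7 genes.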

How the results depend on the processing

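Sele was lower and called under all 17 alternatives. Of 119 recomputed fold changes of the members, 103 kept their direction and side of the threshold. Scaling to endothelial marker RNA called 1 member lower, with Icam1 at -1.04 and Vcam1 at -1.02, and 243 genes lower and 233 higher; the cause was not tested. DESeq2 called Selp at -1.67. Genes called higher numbered 1731 with library size alone, and 1602 and 1594 with limma at pseudocounts of 1 and 0.1. These settings moved the median of all genes by 0.14, 0.10 and 0.13 (log2). Jam2 turned to 0.10 with library size alone, 0.13 with endothelial scaling, 0.0009 without a filter, 0.0285 with the replicate block, and 0.0585 and 0.15 with limma; none was called. Leaving out 1 library gave 2 to 4 members called lower, 528 to 1309 genes lower and 454 to 1079 higher. Estimates then ranged from -1.99 to -0.45 for Selp, -1.36 to -0.87 for Icam1, -0.87 to 0.10 for Icam2 and -0.37 to 0.44 for Jam2.

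The replicate numbers were not taken to pair libraries: same-numbered libraries deviated together at r of 0.13, -0.11, 0.07 and -0.10, and none matched its own number best. With the replicate block, 3 members were called lower, Sele was at -2.77, and 1007 genes were lower and 761 higher. FPKM and CPM per kilobase gave each member's level within 1 SD of each other. Selp, Icam2 and Jam2 had an SE of 0.62, 0.53 and 0.42 on the log2 scale, from 17 to 318 reads a library.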

Other observations

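Wild-type library 1 was the highest of all 8 libraries for Sele, Selp, Icam2, Vcam1 and Jam2, and also held the most endothelial marker RNA, at 218 CPM without TMM scaling. Among the deficient livers, library 1 was highest for Selp, Icam2 and Jam2 and lowest for Icam1, and held the most endothelial marker RNA at 174 CPM. Its Icam1 to F11r ratio on the FPKM scale was 0.828, against 1.19 to 1.65 in the other deficient libraries, and it was the only library in which F11r exceeded Icam1. Of 7 tested cholangiocyte markers Sox9 fell, against 10.6% of all tested genes, and the summed list was at 45.8 to 155 CPM in deficient livers and 199 to 236 CPM in the wild type. Of 8 tested stellate markers Reln, Colec11 and Dcn fell and Hand2 rose, against 10.6% of all tested genes called lower and 9.27% called higher. The summed stellate list was at 97.8 to 161 CPM in deficient livers and 153 to 245 CPM in the wild type. Of 8 tested hepatocyte markers Cps1 fell, against 10.6% of all tested genes called lower. All 8 hepatocyte estimates were below 0, and 4 had an unadjusted edgeR p under 0.05. The share of all genes at that unadjusted threshold was not computed. Without 1 library, the call of Sox9 was lost for deficient 3 or 4 or wild type 3 (-1.85 to -2.02), that of Cps1 for deficient 1 or 3 or wild type 3 (-0.74 to -0.87), and that of Dcn for all but deficient 1 or wild type 4 (-0.54 to -0.71).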
